A study of Mus musculus with 31 samples.

Results

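AMPA and kainate receptors are 2 of the families of glutamate-gated ion channels, and their pore-forming subunits are encoded by 9 genes in the mouse: Gria1 to Gria4 for the AMPA receptor and Grik1 to Grik5 for the kainate receptor. All 9 genes were taken by symbol, through the RefSeq accession that the array gives for each probe, and every probe that mapped to them was kept. This gave 14 probes, of 27427 probes and 20832 genes with a single RefSeq symbol on the array. Gria1, Grik1, Grik4 and Grik5 had 1 probe each, and Gria2, Gria3, Gria4, Grik2 and Grik3 had 2 probes each. Of the 14 probes, 13 were bright enough to test in at least 1 comparison. The remaining one, the Grik3 probe A_55_P2158251, was well above background on 0 of 31 arrays in either channel.

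AMPA receptors are tetramers that carry most of the fast excitatory current at synapses. GluA2, the product of Gria2, makes the channel nearly impermeable to calcium after its RNA has been edited, and channels without it pass calcium, a property for which they are known in the immature brain. Kainate receptors modulate transmitter release and network activity. GluK1, GluK2 and GluK3, from Grik1, Grik2 and Grik3, can form channels alone, whereas GluK4 and GluK5, from Grik4 and Grik5, need one of these as a partner and raise the affinity for kainate.

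The series measured the transcriptome of the forebrain of NMRI mice at 5 days of age with 31 two-colour microarrays, each comparing an RNA labelled with Cy5 to another labelled with Cy3. The methods pool each RNA from the ipsilateral brain hemispheres of 6 sex-matched animals, whereas a supplementary note counts 3 per time and replicate. The spread given here is thus that between pools, and p-values measure only this spread. In Experiment 1, mice given MgSO4 (600 mg/kg, Cy5) were compared to control mice (Cy3) at 4 times, on 7 arrays at 6 h and on 4 arrays each at 3 h, 12 h and 24 h. In Experiment 3, mice with hypoxia-ischemia (HI), made by permanent ligature of the right carotid artery followed by hypoxia, were compared to control mice (Cy3) after 3 h and 12 h (3 arrays each). The titles of these HI arrays carry the name PBS. In Experiment 2, also with 3 arrays each at 3 h and 12 h, the titles name HI in MgSO4-treated mice for Cy5 and MgSO4-treated mice without HI for Cy3, whereas the study's methods describe injured mice on both sides, given MgSO4 or vehicle. The tissue was checked against marker genes. The forebrain markers Emx1 and Lhx2 were well above background on 31 of 31 arrays in both channels, and Emx2 on 25 in Cy3 and 28 in Cy5. Of the hindbrain markers, En1 was well above background on 0 arrays and Gabra6, Hoxb3 and Hoxb4 on 0 to 4, whereas Pcp2 was so on 31 and En2 on 29 in Cy3 and 31 in Cy5. The labelled tissue thus had its forebrain markers, and the hindbrain markers were not all absent. Their part in the results was not tested. As the RNA came from whole hemispheres, fewer cells of a type and less RNA per cell cannot be told apart.

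Some labels and arrays did not match, which bears on the results below. In Experiment 2, injury genes were high in the channel labelled as uninjured. In Cy3 at 3 h, the level of Fos, an immediate early gene, was higher than in the Cy3 controls of Experiment 3 by 5.37 (log2), and that of Atf3, a stress-induced transcription factor, by 3.47, with 5 of the 10 tested genes of an injury list called higher. The median ratio of this list ranged from -0.24 to 0.10 on the 3 h arrays of Experiment 2, against 1.87 to 2.43 on those of Experiment 3. The values of Experiment 2 are therefore given by dye, with no treatment attached to the sign. In Experiment 3, MgSO4 appears as the treatment of the Cy5 RNA in one label field, against its title and source, and this RNA was taken as HI without MgSO4. In Experiment 1 at 6 h, replicates 3 and 7, which were on the same slide (slide 4), correlated with the other 5 arrays at -0.46 to -0.02 over 16741 probes, and these 5 correlated among themselves at 0.14 to 0.88. The direction of the 6 h ratios is thus not settled. They are given with the sign as deposited, and the values with the sign turned are given beside them. At the other times of Experiment 1, some pairs of arrays also correlated below 0. Pairs ranged from -0.15 to 0.42 at 3 h, from -0.19 to 0.63 at 12 h and from -0.19 to 0.27 at 24 h. The direction at these times was taken as deposited and was not tested. The division of the 6 h arrays also ran across times and slides. With replicate 4 of 12 h, on slide 3, replicate 3 of 6 h correlated at 0.67, and replicates 1, 2 and 6 at -0.60, -0.55 and -0.49. With replicate 2 of 12 h, on slide 2, replicate 3 of 6 h was at -0.05, and replicates 1, 2 and 6 at 0.25, 0.55 and 0.55. No array had the dyes exchanged, and the ratios therefore include whatever difference the dyes themselves make for a probe. On the injection itself the sources differ: labels name a subcutaneous route with PBS for the controls, methods an intraperitoneal one with controls left untreated.

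The promoters of 2 genes are shown, that of Gria2 because one of its probes was called lower after HI, and that of Grik3 because, over the brightest probe of each gene, its ratio had the widest range over the arrays. Both windows hold 300 bases, most of them before the start of the gene, from RefSeq on GRCm38.p6, and are printed 5′ to 3′ along the gene. RefSeq windows were found for 6 of the 9 genes. In the Gria2 window, chr3:80802786-80803085 on the minus strand, capitals mark the core of the binding element of REST, a repressor of neuronal genes. In the Grik3 window, chr4:125490446-125490745 on the plus strand, capitals mark GC boxes.
Gria2: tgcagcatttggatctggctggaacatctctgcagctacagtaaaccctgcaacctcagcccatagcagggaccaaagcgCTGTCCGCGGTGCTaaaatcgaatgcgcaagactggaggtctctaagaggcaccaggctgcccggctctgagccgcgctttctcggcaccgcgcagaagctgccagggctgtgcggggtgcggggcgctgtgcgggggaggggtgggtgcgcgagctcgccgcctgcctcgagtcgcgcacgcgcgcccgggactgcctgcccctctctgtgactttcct
Grik3: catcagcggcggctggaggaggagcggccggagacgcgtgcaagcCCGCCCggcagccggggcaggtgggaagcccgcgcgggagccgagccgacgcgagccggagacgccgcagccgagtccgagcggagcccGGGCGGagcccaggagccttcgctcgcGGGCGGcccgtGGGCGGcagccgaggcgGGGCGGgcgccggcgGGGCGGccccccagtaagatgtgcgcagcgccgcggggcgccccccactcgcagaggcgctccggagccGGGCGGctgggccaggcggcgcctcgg
The REST core was searched on both strands as AGCACC and GGACAG, with 2 bases of any kind between them, and was found once in the Gria2 window, on the opposite strand. It was present in 17 of 32851 promoter windows of the same length (0.0517%). The GC box was searched as GGGCGG and was found 7 times in the Grik3 window, 2 times in those of Grik4 and Grik5, and not in those of Gria2, Gria4 and Grik2. It was present in 35.7% of all windows. The AP-1 motif TGANTCA (7.81% of windows) and the cAMP response element TGACGTCA (1.79% of windows) were in none of the 6 windows. GC bases made up 65.7% of the Gria2 window and 82% of the Grik3 window, where the median of all windows was 52.7%. These matches describe the letters of the windows and were not tested for binding.

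Values are log2 of the Cy5 signal over the Cy3 signal, so that 1 stands for a doubling and -1 for a halving of the signal, and they are listed in the order of the replicates. A probe was called when the Benjamini-Hochberg adjusted p of limma, over all probes tested in that comparison, was under 0.05. The share of all probes called is given beside the count of member probes, and the share of all probes with an unadjusted p under 0.05 is given likewise.

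Of all comparisons, HI at 3 h had the largest share of called probes. There, 2 of 13 member probes were called, both lower in HI, where 14.3% of the 18919 probes tested were called. At an unadjusted p under 0.05 there were 3 member probes, 1 higher and 2 lower, where the share of all probes was 36.1%. The share of member probes called, 15.4%, was close to that of all probes.

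The first of the called probes was one of the pair for Gria2. The ratio of A_55_P2031327 was -0.49, -0.55 and -0.45 (mean -0.49 ± 0.05, SD, n = 3, adjusted p = 0.0208), and the 3 arrays lay close together and below 0. The ratio of the other and brighter Gria2 probe, A_65_P00930, was 0.10, 0.24 and -0.14 at this time (mean 0.07 ± 0.19, SD, n = 3, adjusted p = 0.628). Both probes are assigned to Gria2 through different RefSeq transcripts, NM_001083806 for the former and NM_001039195 for the latter, and they gave different answers at 3 h. The call on A_55_P2031327 was lost when replicate 1 (adjusted p = 0.0599) or replicate 2 (adjusted p = 0.0602) was left out.

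The second called probe belonged to Grik2. The ratio of A_55_P2039981 was -0.55, -0.88 and -1.14 (mean -0.86 ± 0.30, SD, n = 3, adjusted p = 0.0263). The probe was dim. It was well above background in the control channel on 3 of 3 arrays and in the HI channel on 0 of 3. The level in HI is thus a bound. On the processed signals, the control signal was at least 1.30-fold higher, a value open to a dye effect. It is set against the lowest signal well above background of any probe on the array, not against a limit of this probe. The ratio was smaller without background subtraction (-0.21) and with normexp (-0.12), so that the bound holds for the processed signals only. The probe passed the brightness filter through the control channel alone, so that a call as lower follows in part from the filter. With both channels required on every array, 1 member probe was called, Gria2 A_55_P2031327 (adjusted p = 0.00924), where 20.5% of all probes were. The other Grik2 probe, A_55_P2039992, which was well above background in Cy5 on all 31 arrays, had ratios of 0.69, 0.62 and 0.01 (mean 0.44 ± 0.37, SD, n = 3, adjusted p = 0.108). The pair thus pointed in opposite directions on every 3 h HI array. The call on the dim probe was lost without replicate 2 (adjusted p = 0.0542) and with another background correction, normexp, under which the ratio was -0.12 (adjusted p = 0.13), where that of Gria2 A_55_P2031327 was -0.25 (adjusted p = 0.0115). Both calls were lost with all dim probes kept (adjusted p = 0.0724 for Gria2 and 0.08 for Grik2) and with all 31 arrays in 1 fit (0.118 and 0.381), and without replicate 3 the brighter Grik2 probe was called as well (0.65, adjusted p = 0.0312).

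No probe of the other subunits passed the test 3 h after HI. Gria4 (A_55_P1987725) gave -0.14, -0.06 and -0.11, and Grik4 gave -0.13, -0.19 and -0.12, so that all 3 arrays lay below 0 for both genes with adjusted p of 0.284 and 0.154. Gria1, the AMPA subunit whose synaptic insertion follows activity, gave -0.93, 0.12 and 0.53. This spread (SD 0.75) exceeded its mean of -0.09. Over the brightest probe of each gene, the median was -0.04 for the 4 AMPA subunits and 0.09 for the 5 kainate subunits, beside -0.03 for all genes tested.

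After 12 h of HI, 0 of 12 member probes were called, where 0.0106% of 18926 probes were called. At an unadjusted p under 0.05 there were 5 member probes, 1 higher and 4 lower, where the share of all probes was 27.6%. The count by the methods' t-test, unadjusted, was 4, where that test gave 17.8% of all probes. The lowest ratios were those of Gria2 and Grik1. Gria2 (A_65_P00930) gave -0.61, -0.74 and -0.95 (mean -0.76 ± 0.17, SD, n = 3, adjusted p = 0.0775). Grik1 gave -0.58, -0.88 and -0.55 (mean -0.67 ± 0.18, SD, n = 3, adjusted p = 0.0798). All 3 arrays were well below 0 for each, and neither passed the adjusted threshold. Gria2 was called without replicate 1 (-0.84, adjusted p = 0.0298) or without replicate 3 (-0.67, adjusted p = 0.0187), and Grik1 without replicate 3 (-0.73, adjusted p = 0.0158). The range of adjusted p over all alternatives was 0.00403 to 0.485 for Gria2 and 0.0056 to 0.566 for Grik1.

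The second Gria2 probe, A_55_P2031327, gave -0.15, -0.74 and -0.58 at 12 h (adjusted p = 0.132), so that it was below 0 on 6 of 6 HI arrays over both times. Grik1 was likewise below 0 on 6 of 6 HI arrays. The brighter Grik2 probe gave -0.37, -0.39 and -0.40 (mean -0.39, adjusted p = 0.115), where it had been above 0 at 3 h. Grik3 ran the other way, with 1.70, 0.96 and 0.00 (mean 0.89 ± 0.85, SD, n = 3, adjusted p = 0.159). This mean rested on replicates 1 and 2, and without replicate 3 it was 1.33 (adjusted p = 0.00396). The median over the brightest probes was -0.21 for AMPA subunits and -0.16 for kainate subunits. Over the same arrays, the median over genes of the mean ratio was 0.43 for the markers of glutamatergic neurons and 0.11 for those of neurons. It was -0.26 for the microglia list and 0.51 for the oligodendrocyte list. Taken on each array instead, the median of the neuron list was 0.34, 0.01 and -0.20. That of the glutamatergic list ranged from 0.15 to 0.86, with a middle value of 0.27. The part of these cell types in the values of the subunits was not tested.

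The change between 12 h and 3 h of HI was also tested. Of 13 member probes 0 were called, where 0% of 19321 probes were called, and 3 had an unadjusted p under 0.05, all lower at 12 h, where the share of all probes was 17.1%. These were Gria2 A_65_P00930 (difference of ratios -0.83, SE 0.15, adjusted p = 0.108), Grik2 A_55_P2039992 (-0.82, SE 0.19, adjusted p = 0.138) and Grik1 (-0.58, SE 0.13, adjusted p = 0.135). For the brighter Grik2 probe, the 3 arrays at 12 h were below all 3 at 3 h. Time and slide were mixed in part here, as the 3 h arrays lay on slides 7 and 8 and the 12 h arrays on slides 8 and 9.

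**Figure D1:**
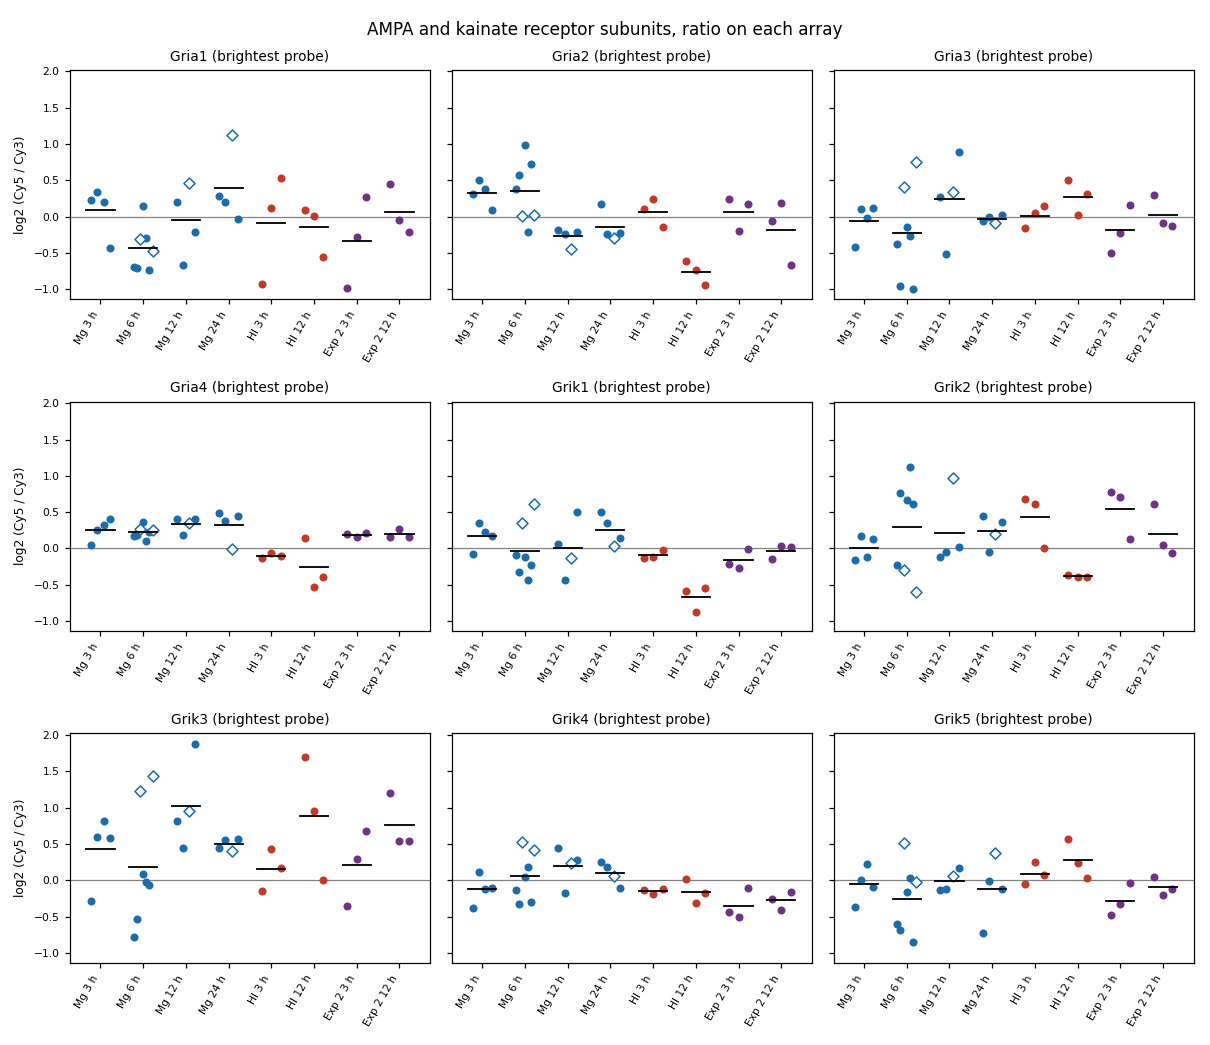
Log2 Cy5/Cy3 ratio (vertical axis) of the brightest probe of each of the 9 genes on each array, by group: MgSO4 against control (blue; open diamonds are arrays of slide 4), HI against control (red) and Experiment 2 (purple). Black lines are group means; Gria2 and Grik1 lay below 0 on all 3 arrays 12 h after HI, Gria4 lay near or above 0 on every MgSO4 array drawn, and Grik3 had the widest spread of these probes. The 6 h ratios are drawn with their sign as deposited.

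Genes that act on these receptors were examined from fixed lists. At 3 h after HI, 10 of the 38 tested genes of these lists were called by their brightest probe (26.3%). Of all probes, dim and second ones included, 14.3% were called. Of those well above background in both channels on every array, 20.5% were. Of the 18 AMPA receptor auxiliary and assembly genes, 3 were called higher and 1 lower, with a median of 0.22 where that of all genes was -0.03. Shisa7 (0.60, adjusted p = 0.0426) and Shisa9 (0.43, adjusted p = 0.0351), which encode auxiliary subunits, and Prrt1 (0.33, adjusted p = 0.044), a further auxiliary protein, were higher. Abhd6, whose product restrains delivery of AMPA receptors to the surface, was lower (-0.31, adjusted p = 0.042). Of 14 genes of trafficking and clustering, 12 were tested, and 3 were called higher and 1 lower. Arc, an immediate early gene whose product drives AMPA receptor endocytosis, had the largest ratio (1.55, adjusted p = 0.0124). Nptx2, a secreted pentraxin that clusters AMPA receptors, rose by 0.41 (adjusted p = 0.0399) and Gripap1, which encodes a partner of the scaffold GRIP, by 0.43 (adjusted p = 0.0318), while Lrrtm2, a synaptic adhesion molecule, fell by 0.31 (adjusted p = 0.0434). Neto1 and Neto2, the kainate receptor auxiliary genes, were both tested and 0 were called, with an unadjusted p of 0.0298 for Neto2. Among the RNA editing genes, Adar was higher (0.44, adjusted p = 0.0302), and Adarb2 was lower (-0.75, adjusted p = 0.0201) from a probe that was well above background in Cy3 on only 5 of 31 arrays.

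Of 51 tested markers of cell types, 5 were called by their brightest probe at 3 h after HI (9.8%). The share of all probes, dim and second ones included, was 14.3%. Snap25 of neurons (0.35), Gad1 of GABAergic neurons (0.33), Slc1a2 of astrocytes (0.42) and Mbp of oligodendrocytes (0.61) were called higher, and P2ry12 of microglia (-0.37) was called lower. These were 1 of 7, 1 of 6, 1 of 6, 1 of 7 and 1 of 6 tested markers of their lists, and their part in the values of the receptor genes was not tested. At 12 h of HI, 0 of the genes on the receptor partner lists were called.

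MgSO4 alone gave no call on a member probe at any time. At 3 h, 0 of 13 member probes were called, where 0% of 18647 probes were called, and 2 had an unadjusted p under 0.05, where the share of all probes was 9.02%. At 6 h, 0 of 12 were called, where 0.0283% of 17639 were, and 3 had an unadjusted p under 0.05, where the share was 13.2%. At 12 h, 0 of 12 were called, where 0% of 17868 were, and 3 had an unadjusted p under 0.05, where the share was 15.7%. At 24 h, 0 of 13 were called, where 0.00555% of 18031 were, and 2 had an unadjusted p under 0.05, where the share was 11.1%. By the methods' t-test the unadjusted counts at 3, 6, 12 and 24 h were 3, 2, 3 and 1, where that test gave 9.47%, 13.5%, 11.3% and 10.4% of all probes.

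Gria4 lay above 0 on nearly every MgSO4 array outside 6 h, where the direction is not settled. The probe A_55_P1987725 gave 0.05, 0.26, 0.32 and 0.41 at 3 h, from 0.10 to 0.37 with a median of 0.23 at 6 h (from -0.37 to -0.10 with a median of -0.23 if the sign is turned), 0.40, 0.18, 0.35 and 0.40 at 12 h, and 0.49, 0.38, -0.01 and 0.45 at 24 h. It was positive on 11 of 12 arrays of Experiment 1 without 6 h. With the 6 h arrays this became 18 of 19, or 11 of 19 with their sign turned. The adjusted p at the 4 times was 0.517, 0.277, 0.305 and 0.394. In Experiment 2 it was positive on 6 of 6 arrays (0 with the sign turned), where it ranged from 0.16 to 0.27, and in HI on 1 of 6. The second Gria4 probe, A_52_P349182, was positive on 10 of the 19 MgSO4 arrays, or 7 with the 6 h sign turned. The pair of probes did not vary together (Pearson r = -0.06 over 31 arrays), and they are assigned to different transcripts, NM_001113180 and NM_019691.

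Among the member probes, Grik3 had the largest mean ratio under MgSO4. At 12 h the ratios were 0.81, 0.45, 0.95 and 1.88 (mean 1.02 ± 0.61, SD, n = 4, adjusted p = 0.30). At 24 h they were 0.45, 0.56, 0.41 and 0.56 (mean 0.49 ± 0.08, SD, n = 4, adjusted p = 0.244). All 8 arrays at these times were positive, while at 6 h replicates 3 and 7 gave 1.23 and 1.43 and the other 5 arrays lay between -0.79 and 0.08 (-1.23 and -1.43, against -0.08 to 0.79, with the sign turned). For Grik3, the 6 h arrays on slide 4 thus lay apart from the other 6 h arrays. Grik3 was positive on 11 of 12 arrays of Experiment 1 without 6 h, and on 14 of 19 with them (15 with the 6 h sign turned). It was positive on 4 of 6 arrays of Experiment 3, and on 5 of 6 of Experiment 2 (1 with the sign turned).

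Gria1 at 6 h gave -0.73 at the lowest, a median of -0.47 and 0.14 at the highest (adjusted p = 0.208). It was negative on 6 of 7 arrays, and with the sign turned the mean is 0.44 rather than -0.44. At 24 h the same probe gave 0.28, 0.19, 1.12 and -0.04 (adjusted p = 0.484), the high value coming from the array on slide 4. Gria2 (A_65_P00930) was positive on 4 of 4 arrays at 3 h, at 0.31, 0.51, 0.38 and 0.09 (adjusted p = 0.478). At 6 h its mean was 0.35 (adjusted p = 0.366), or -0.35 with the sign turned. At 12 h it was negative on 4 of 4 arrays, at -0.19, -0.24, -0.45 and -0.21 (adjusted p = 0.315).

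The means by slide depended on the 6 h arrays. On the 4 arrays of slide 4 (2 of 6 h, 1 of 12 h and 1 of 24 h), the mean ratio was 0.35 for Gria3 (A_52_P68221), 0.31 for Grik4, 0.23 for Grik5 and 1.00 for Grik3, the highest of the 4 slides for each. With the 6 h sign turned, these means were -0.23, -0.16, -0.02 and -0.32. Over the 2 arrays of 12 h and 24 h alone, slide 4 was at 0.13 for Gria3, 0.14 for Grik4 and 0.68 for Grik3, and slide 3 was higher, at 0.44, 0.23 and 1.22. Grik5 was still highest on slide 4 (0.21). With the 6 h signs as deposited, the median ratio on the slide 4 arrays ranged from 0.34 to 0.68 for the glutamatergic list, from -0.16 to 0.40 for that of neurons and from 0.23 to 0.70 for that of the oligodendrocyte lineage. The part of these cell types was not tested, nor that of the slide at 6 h beyond a fit with slide as a random block, which gave 0 called member probes.

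Differences between times of MgSO4 were tested next. For 6 h minus 3 h, 0 of 13 member probes were called where 0% of 19304 were, and 1 had an unadjusted p under 0.05, Gria1 (-0.52, adjusted p = 0.998), where the share was 4.48%. With the 6 h sign turned, Gria1 was at 0.36 (adjusted p = 0.498), and Gria4 A_55_P1987725 was called (-0.48, adjusted p = 0.0211), where 2.68% of all probes were. For 12 h minus 6 h, 0 of 13 were called where 0.00518% were, and 2 had an unadjusted p under 0.05, Gria2 A_65_P00930 (-0.63, adjusted p = 0.364) and Grik3 (0.84, adjusted p = 0.364), where the share was 13.7%. With the 6 h sign turned these were 0.08 (adjusted p = 0.84) and 1.21 (adjusted p = 0.0577), and the same Gria4 probe was called (0.56, adjusted p = 0.00482), where 6.71% of all probes were. The turn reverses all 7 arrays of 6 h together, so that replicates 3 and 7 stay opposed to the others. As deposited, the Gria4 probe was above 0 on all 7, and both calls on it come from the turn alone. With replicates 3 and 7 of 6 h left out, 12 h minus 6 h called 4 member probes, where 23.9% of all probes were called. For 24 h minus 12 h, 0 of 13 were called where 0% were, and 0 had an unadjusted p under 0.05, where the share was 1.63%. These comparisons share arrays. None of the partner genes was called in a comparison of MgSO4 with its control.

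In Experiment 2 at 3 h, 1 of 13 member probes was called, where 11.6% of 19255 probes were called. At an unadjusted p under 0.05 there were 3, 2 higher in Cy5 and 1 lower, where the share of all probes was 30.2%. The called probe was the dim Grik2 probe, A_55_P2039981, with 0.69, 0.93 and 1.08 (mean 0.90 ± 0.20, SD, n = 3, adjusted p = 0.0128), or -0.90 with the sign turned. It was well above background in both channels on 3 of 3 arrays. The brighter Grik2 probe gave 0.78, 0.71 and 0.13 (mean 0.54, adjusted p = 0.078), on the same side. Grik4 gave -0.44, -0.51 and -0.10 (mean -0.35, adjusted p = 0.119). The call on A_55_P2039981 was lost with normexp background correction (0.20, adjusted p = 0.11). Further probes were called when 1 array was left out. Without replicate 1 this was Grik3 (0.48, adjusted p = 0.0237), and without replicate 3 the brighter Grik2 probe (0.75, adjusted p = 0.0149) and Grik4 (-0.47, adjusted p = 0.0388).

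At 12 h in Experiment 2, 0 of 13 member probes were called, where 0% of 19264 probes were called. At an unadjusted p under 0.05 there were 2, 1 higher and 1 lower, where the share of all probes was 26.6%. Grik3 gave 1.21, 0.54 and 0.54 (mean 0.76, adjusted p = 0.0877), and Grik4 gave -0.27, -0.42 and -0.16 (mean -0.28, adjusted p = 0.173). Grik4 was thus negative on 6 of 6 arrays of this experiment. Without replicate 3, the dim Grik2 probe was called at 12 h (1.05, adjusted p = 0.0418). It was well above background in Cy5 on 3 of 3 arrays and in Cy3 on 1. The probe thus passed the brightness filter through Cy5, so that a call as higher in Cy5 follows in part from the filter. For 12 h minus 3 h, 0 of 13 were called where 0% of 19639 were, and 0 had an unadjusted p under 0.05, where the share was 4.22%. Of all probes, dim and second ones included, 11.6% were called at 3 h in this experiment. Among 37 partner genes, tested by their brightest probe, 4 were called at 3 h (10.8%), all higher in Cy5. These were Cacng4, an auxiliary subunit of the TARP family (1.22, adjusted p = 0.0085), the scaffold gene Grip2 (0.73, adjusted p = 0.0156), Dlg1, which encodes the scaffold SAP97 (0.59, adjusted p = 0.0296), and Pick1, whose product binds GluA2 (0.48, adjusted p = 0.0349). Of 51 tested markers of cell types, 2 were called at 3 h (3.92%), both higher in Cy5. These were Slc17a6 of glutamatergic neurons (0.51) and Pecam1 of endothelium (0.54), and their part was not tested.

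The dyes were then compared one at a time between Experiments 2 and 3, whose arrays shared slides at each time. A level here is the log2 signal of one dye relative to the 75th percentile of its array, so that it compares arrays but not probes. In Cy5 at 3 h, 3 of 13 member probes were called, all higher in Experiment 2, where 11.1% of 19076 probes were called. At an unadjusted p under 0.05 there were 5, 4 higher and 1 lower, where the share of all probes was 28.4%. The levels of Gria2 A_65_P00930 were -2.13, -2.28 and -1.85 in Experiment 2 and -2.76, -2.93 and -3.03 in Experiment 3 (difference 0.82, SE 0.14, adjusted p = 0.0162). The groups did not overlap, on slide 7 or on slide 8. The same probe differed by as much in the other dye, where the levels in Cy3 were -2.38, -2.09 and -2.03 against -2.88, -3.18 and -2.88 (difference 0.81, SE 0.15, adjusted p = 0.091), and Cy3 of Experiment 3 held control mice.

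Gria4 A_52_P349182 was at -0.90, -1.20 and -1.10 in Cy5 of Experiment 2 and at -1.63, -1.41 and -1.66 in that of Experiment 3 (difference 0.50, SE 0.12, adjusted p = 0.0429). In Cy3 it differed by 0.35 (adjusted p = 0.302). The dim Grik2 probe had the largest difference. Its levels in Cy5 were -4.32, -4.18 and -4.10 in Experiment 2 and -5.59, -6.02 and -6.36 in Experiment 3. In Experiment 3 it was not well above background on any of the 3 arrays. On the processed signals, that of Experiment 2 was thus at least 2.48-fold higher. Over all alternatives the measured difference ranged from 0.44 to 1.99 (log2), so that its size depended on the processing and the bound holds for the processed signals only. The adjusted p of 0.00544 tests the measured levels, not the bound. The probe entered that test through Experiment 2 alone, where it was high. In Cy3 the probe differed by 0.03 (adjusted p = 0.941). The brighter Grik2 probe differed by 0.59 in Cy5 (adjusted p = 0.059) and by 0.48 in Cy3 (adjusted p = 0.459). Among 37 partner genes in Cy5 at 3 h, 4 were called (10.8%, where 11.1% of all probes were). Cacng4 (1.17), Dlg1 (0.60) and Pick1 (0.42) were higher in Experiment 2 and Adar (-0.46) was lower. Of 51 markers of cell types, 4 were called (7.84%), all lower in Experiment 2. These were Hbb-bs of blood (-0.90), Gfap of astrocytes (-0.80), Kdr of endothelium (-0.58) and Sox10 of the oligodendrocyte lineage (-0.49). Their part was not tested.

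Samples of the same replicate number deviated together in Cy5 at 3 h, and a fit with the replicate number as a block called 6 member probes, where 33.8% of all probes were called. It added Grik2 A_55_P2039992 (0.59, adjusted p = 0.0225), Grik4 (-0.23, adjusted p = 0.0404) and Grik5 (-0.20, adjusted p = 0.0454). The call on Gria4 was held in 3 of 11 alternatives. It was lost in 5 of 6 fits that left out 1 array, with quantile normalization (adjusted p = 0.0611), with no background subtraction (0.0532) and with no filter on dim probes (0.0744). The call on Gria2 was lost in 2 of 6 fits that left out 1 array. Without replicate 3 of HI or replicate 1 of Experiment 2, 1 member probe was called, that of Grik2. Over all alternatives the adjusted p ranged from 0.0144 to 0.0542 for Gria2, from 0.0379 to 0.128 for Gria4 and from 0.00961 to 0.0243 for Grik2.

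In Cy3 at 3 h, 0 of 13 member probes were called, where 0.294% of 19066 probes were called, and 3 had an unadjusted p under 0.05, where the share of all probes was 13.2%. In Cy3 at 12 h, 0 of 12 were called where 0% of 18804 were, and 1 had an unadjusted p under 0.05, the brighter Gria4 probe (-0.44, adjusted p = 0.35), where the share was 13.3%. In Cy5 at 12 h, 0 of 13 were called where 0% of 19302 were, and 3 had an unadjusted p under 0.05, all higher in Experiment 2, where the share was 13.1%. These were Gria2 A_65_P00930 (0.79, adjusted p = 0.22), Grik1 (0.73, adjusted p = 0.257) and the dim Grik2 probe (adjusted p = 0.329 on the measured levels). The latter was not well above background in Cy5 of Experiment 3 on any of the 3 arrays, and entered the test through Experiment 2 alone. On the processed signals, its level in Experiment 2 was thus at least 1.57-fold higher, a bound that the p does not test.

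**Figure D2:**
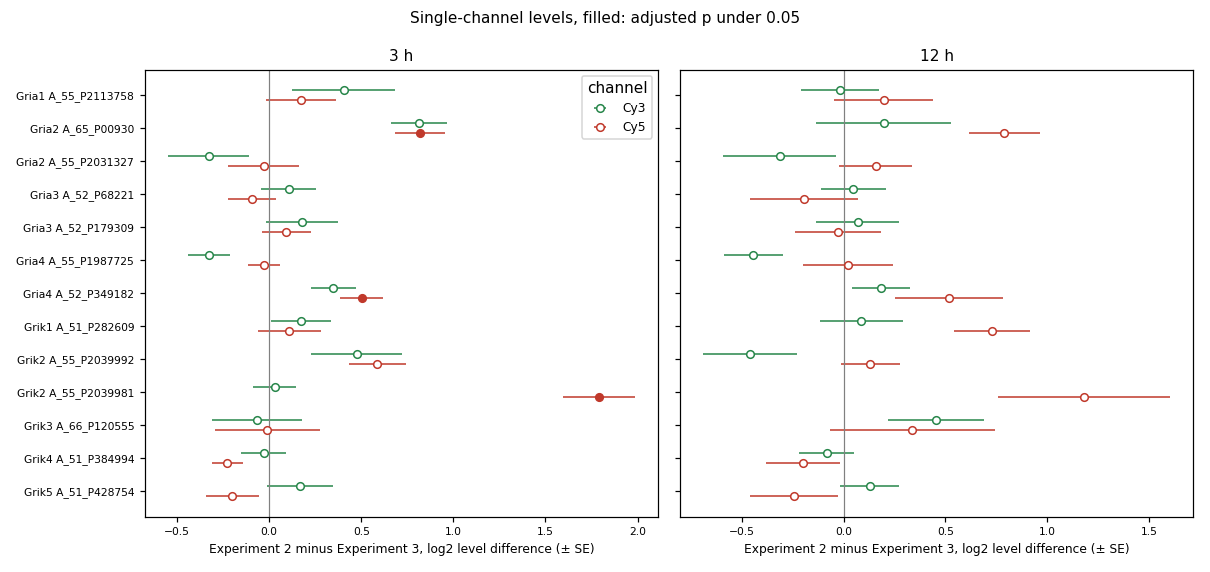
Difference in log2 level between Experiment 2 and Experiment 3 (horizontal axis, ± SE) for each tested member probe (vertical axis), in Cy3 (green) and Cy5 (red), at 3 h (left) and 12 h (right); filled points have an adjusted p under 0.05. Gria2 A_65_P00930 differed alike in both dyes at 3 h (0.81 and 0.82), whereas Grik2 A_55_P2039981 was called in Cy5 and was at 0.03 in Cy3. The Cy5 points of this probe are set against signals of Experiment 3 that were not well above background. A bound of at least 2.48-fold (3 h) or 1.57-fold (12 h) applies there, on the processed signals only.

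Where a gene had 2 probes, they often parted. Over the 31 arrays, the ratios of the pair correlated at r = 0.71 for Gria3, 0.47 for Gria2, 0.16 for Grik2 and -0.06 for Gria4, and they had the same sign on 22, 16, 19 and 17 arrays. Both probes of Gria3 are assigned to NM_016886, and the pair of Grik2 to NM_001111268 and NM_010349. The Grik3 pair (r = 0.07) included the probe that was not well above background on any array. The arrays are not independent samples of 1 condition, the 6 h arrays enter with the sign as deposited, and these correlations are descriptions.

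**Figure D3:**
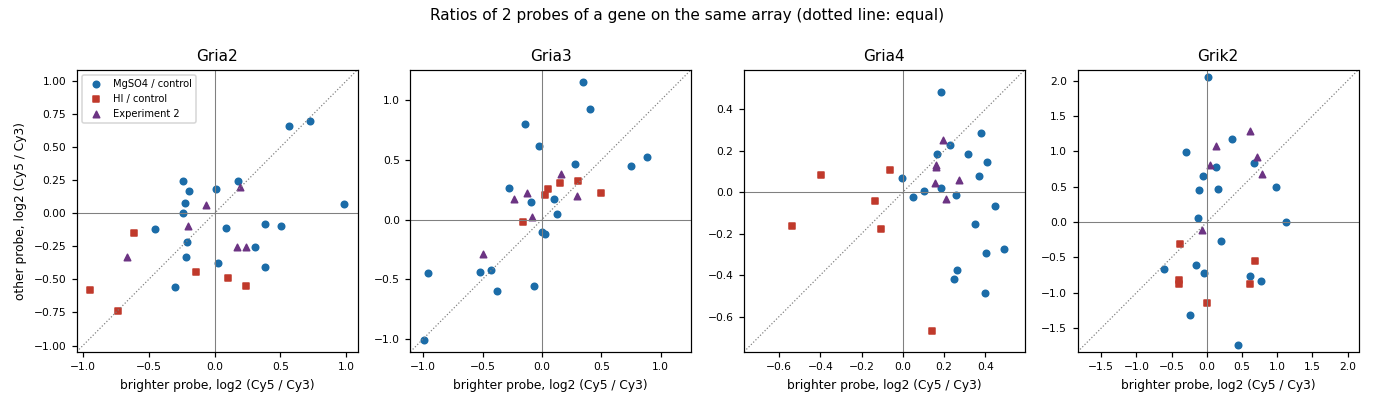
Log2 Cy5/Cy3 ratio of the brighter probe (horizontal axis) and of the other probe (vertical axis) of Gria2, Gria3, Gria4 and Grik2 on each of 31 arrays: MgSO4 (circles), HI (squares) and Experiment 2 (triangles); the dotted line marks equal ratios. The Gria3 points follow the line (r = 0.71), and those of Gria4 do not (r = -0.06).

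The Cy3 controls of Experiments 1 and 3 gave the level of each gene in mice without MgSO4 or HI, in 6 groups. Grik3 varied most, from -2.09 ± 0.30 (SD, n = 4) in the 12 h controls of Experiment 1 to 0.20 ± 0.13 (SD, n = 4) in its 3 h controls. The order of its levels was 12 h, 6 h and 24 h of Experiment 1, 12 h and 3 h of Experiment 3, and 3 h of Experiment 1, and the ranges of 2 of the 5 neighbouring pairs did not overlap. In both experiments the 3 h controls were thus the higher, with -0.16 ± 0.14 at 3 h and -1.14 ± 0.43 at 12 h in Experiment 3 (SD, n = 3 each). Grik4 spanned 1.23, from -0.17 ± 0.25 (12 h, Experiment 1) to 1.06 (3 h, Experiment 3), with 2 of 5 neighbouring pairs apart. Gria2 (A_65_P00930) spanned 1.46 and Grik1 1.34, with 0 and 1 of 5 neighbouring pairs apart. Grik5 spanned 0.54, and the ranges of its lowest and highest groups overlapped. The 3 h controls of Experiment 1 lay on slides that held no other group, so that time and slide cannot be told apart there.

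**Figure D4:**
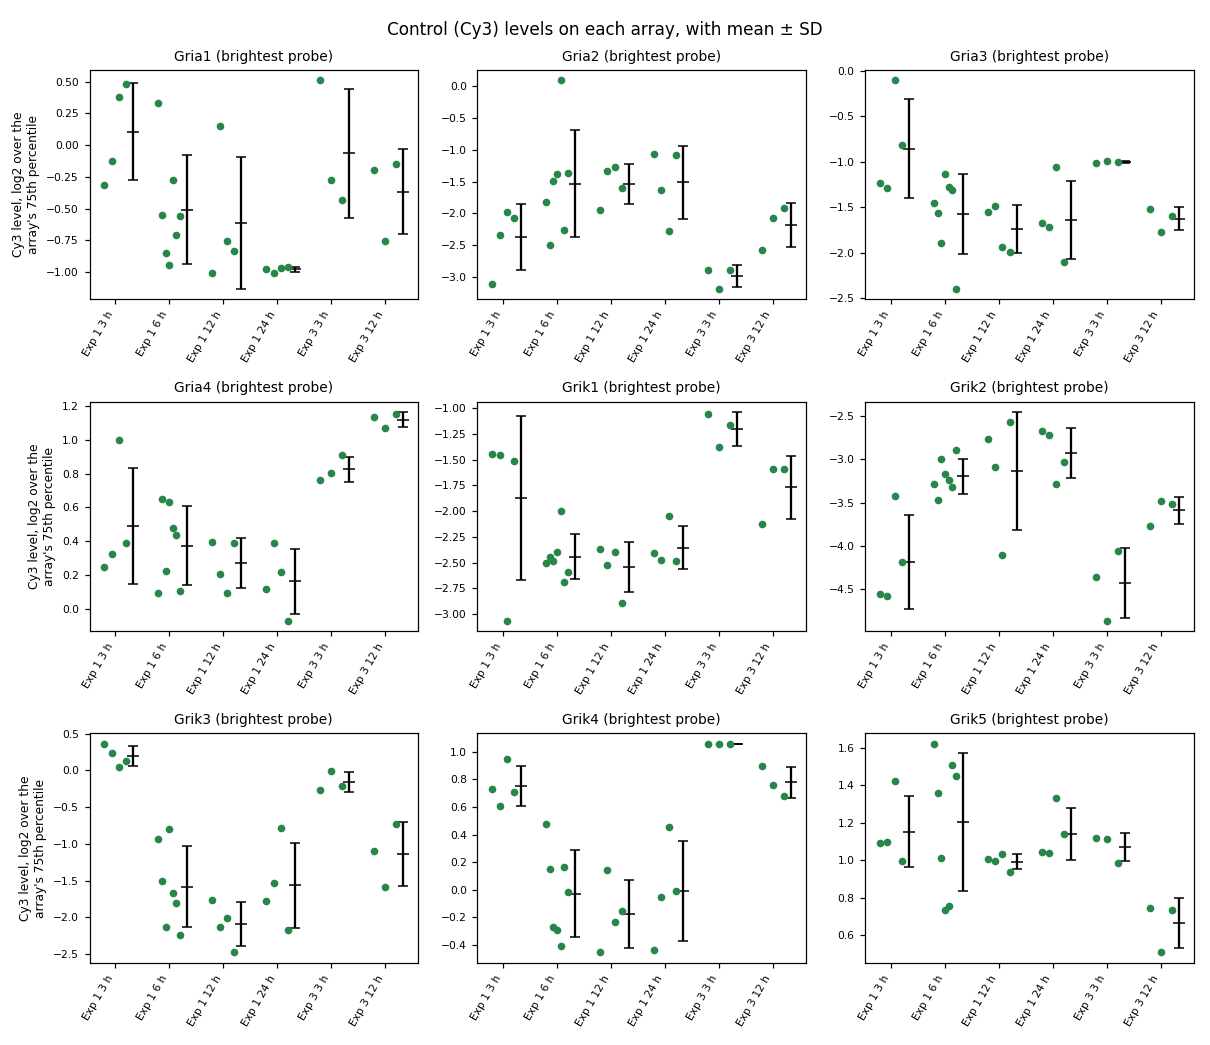
Cy3 level (vertical axis, log2 over the 75th percentile of the array) of the brightest probe of each gene in control mice, for 6 groups (horizontal axis); points are arrays and bars are mean ± SD. Grik3 was highest in the 3 h controls of both experiments, and Grik5 spanned least (0.54).

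The genes whose ratios were most like those of each subunit were listed over all 31 arrays among 13107 genes tested in every group. For Grik3 these were Celf2 (r = 0.97), an RNA-binding protein, and Sort1 (r = 0.97), a sorting receptor. For Gria3 they were Mapt (r = 0.92), which encodes tau, and Tmem229b (r = 0.92), and for Grik5 Eif4g1 (r = 0.94), a translation initiation factor, and Myo18a (r = 0.93). Grik4 was closest to Hdac6 (r = 0.89) and Rab43 (r = 0.85), Gria4 to Pkig (r = 0.87) and Lztr1 (r = 0.86), and Grik1 to Slc2a5 (r = 0.79) and Elapor2 (r = 0.76). Gria2 was closest to Rnf25 (r = 0.79) and Sfxn2 (r = 0.78), Grik2 to H2al1o (r = 0.76) and Ltb4r2 (r = 0.73), and Gria1 to Nat8f4 (r = 0.68) and Kif5b (r = 0.64). Among the subunits the highest correlations were those of Gria3 with Grik3 (r = 0.81) and with Grik5 (r = 0.69), and of Gria4 with Grik1 (r = 0.67). Gria2 ran against Grik5 (r = -0.50) and Gria3 (r = -0.45). As above, these values are descriptions over arrays that share slides and groups.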

How the data were processed

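The authors hybridized 31 Agilent whole mouse genome 4x44K arrays and deposited spot intensities from Feature Extraction 10.5.1.1, background-subtracted, detrended and dye-normalized within each array by LOWESS, together with a table of log10 ratios of Cy5 over Cy3. The submitters' processing notes name the same software. Here the log2 ratio of the processed signals was computed, without spots marked as outliers, and spots of a probe were averaged. A probe was tested where it had 1 RefSeq symbol and 66.7% or more of a group's arrays showed it well above background in Cy3 or Cy5. Well above background covered 45.2% to 70.2% of probes per channel and array, no spot was saturated, and the number of arrays limits the precision. Group means were tested against 0, each group in a fit of its own, with limma 3.58.1 (R 4.3.3) and Benjamini-Hochberg adjustment. Single dyes were scaled to the 75th percentile of each array and compared with limma. A bound was set on the processed signals, per channel after Aquantile normalization for ratios, against the lowest signal well above background of any probe on the array. All 9 genes and every probe are named; a partner gene or marker is named where called, at most 4 a list and comparison, and the 2 genes most like each subunit are named. The brightest probe stands for a gene in lists. The genes and lists were chosen with earlier results of these data known. The fits recovered known changes of 1 and 2 (log2) in simulated data. The noise there was independent between arrays, so that smaller changes and shared slides were not covered. Replicate numbers paired samples in the levels of Cy3 and Cy5 at 3 h and of Cy5 at 12 h, where all same-numbered arrays, which share slides, deviated together (r = 0.17 to 0.57), and not elsewhere. Alternatives covered background correction, centring, filters, slide, replicates, the methods' t-test and the sign of ratios. The earliest time point of the methods was not analysed here.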

Additional observations from a re-analysis of the deposited data

Results flagged for a closer look

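Dixon's test was run on 50 pairs of a member probe and an MgSO4 time, each with 4 or more arrays. In 2 of these pairs an array stood apart from the rest of its group. Chance gives this in about 1 test of 20, but the pairs share arrays and are not independent. At 12 h of MgSO4, replicate 3, on slide 4, had a ratio of 0.98 for Grik2 (A_55_P2039992), while the others lay between -0.12 and 0.02. At 24 h of MgSO4, replicate 1, on slide 1, had a ratio of 0.18 for Gria2 (A_65_P00930), while the others lay between -0.30 and -0.22.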

How the results depend on the processing

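The count of called member probes changed under some settings. At 3 h of MgSO4 the methods' t-test, unadjusted, gave 3. At 6 h, replicates 1, 2 and 6 (chosen with earlier results known) gave 6, where 25.7% of all probes were called, replicates 1, 2, 4, 5 and 6 gave 1 (17.2%), one fit over all 31 arrays gave 2, and unadjusted the methods' t-test gave 2. At 12 h one fit gave 2, Gria4 and Grik3, and unadjusted the methods' t-test gave 3; at 24 h that test gave 1. At 3 h of HI, both channels well above background gave 1, a fold change of at least 1.5 gave 1, no filter on dim probes 0, normexp 1, one fit 0, and the methods' t-test 0 adjusted and 4 unadjusted. At 12 h of HI one fit gave 2 and unadjusted the methods' t-test gave 4. In Experiment 2 at 3 h, no background subtraction gave 2, normexp 0, one fit 0, and the methods' t-test 0 adjusted and 2 unadjusted, and at 12 h 1 unadjusted. The difference between 12 h and 6 h of MgSO4 gave 4 with replicates 1, 2, 4, 5 and 6 of 6 h, a setting chosen after seeing the data, as was slide as a fixed block there. With the 6 h sign turned, also chosen after seeing the data, that difference gave 1 and the one between 6 h and 3 h gave 1. Leaving out 1 array gave 0 to 3 at 3 h and 0 to 3 at 12 h of HI, 1 to 3 and 0 to 1 in Experiment 2, 1 to 3 in Cy5 at 3 h, and 0 in every other comparison. Causes were not tested, except that no filter adds probes to the adjustment and fewer arrays reduce the samples.

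With the replicate block, Cy5 at 3 h gave 6 in place of 3, and every other comparison between times or experiments kept 0. In the comparisons between times, where samples share only a number, it took the count over all probes in 12 h minus 6 h from 1 to 0. Direction turned for Gria3 A_52_P179309 at 6 h in replicates 1, 2 and 6 (-0.68) and, with the sign turned, for Grik2 A_55_P2039981 in Experiment 2 at 3 h (-0.90). Centring each array on its median moved all probes by 0.12 in 12 h minus 6 h of MgSO4 and in 12 h minus 3 h of HI. Slide as a random block could be fitted only at 3 h and 6 h of MgSO4. Dim probes, Grik2 A_55_P2039981 above all, depend most on the background correction: its ratio was -0.86 at 3 h of HI, -0.21 without background subtraction and -0.12 with normexp.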
